A study of Mus musculus with 30 samples.

Results

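cJun and JunB are related subunits of AP-1, and their binding sites were compared in 3T3-L1 cells, a mouse pre-adipocyte line, 4 h after adipogenic induction. Sites were taken from the 2 lists of peaks that the authors deposited for these proteins, on chromosomes 1 to 19 and X, and were matched by identical interval. Of 34724 sites in the lists of 9 transcription factors, 11312 were listed for cJun or JunB. They fell into 4945 sites listed for both proteins, 1230 sites listed for cJun only and 5137 sites listed for JunB only; the other 23412 sites were listed for neither. The cells had been treated with 1 μM dexamethasone, 0.5 mM IBMX, 1 μg per ml insulin and serum at 10% (fetal calf), and the antibodies were H79 for cJun and 210 for JunB. The other 7 lists, from the same treatment, were those of FOSL2, ATF2, ATF7, KLF4, KLF5, VDR and RXR. Each factor had 1 library, so no difference below has a replicate check. 3T3-L1 is a clonal cell line, and the sources used here do not say whether the libraries came from the same cultures.

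AP-1 is a family of dimers. Jun proteins can pair with each other, with Fos proteins such as FOSL2, or with ATF2, whereas FOSL2 needs a Jun partner to bind DNA; all of them hold DNA through a basic leucine zipper (bZIP). JunB and cJun have similar DNA-binding domains but differ as activators: cJun is the stronger one in many promoters, and JunB can oppose it. ATF7 is a close relative of ATF2. KLF4 and KLF5 are zinc-finger factors that act early in fat cell differentiation, and VDR, the vitamin D receptor, binds DNA with RXR, the retinoid X receptor.

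The overlap was lopsided. Of the cJun sites, 80.1% carried JunB (79.1 to 81.1, exact interval at 95%), while 49.0% of the JunB sites carried cJun (48.1 to 50.03). Among all sites, 29% were listed for JunB and 17.8% for cJun. The JunB list was the longer, with 10082 sites against 6175. No score or read number comes with the lists. The depth behind them is unknown, and a site missing from a list may lie below the authors' threshold. Intervals cover counting error only. They treat sites as independent. The spread between chromosomes is given as an SD over 20 chromosomes beside the differences of the single-Jun classes.

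What else was listed at a site differed between the classes, and the clearest contrast was between sites of cJun only and of JunB only. FOSL2 was listed at 7.15% of cJun-only sites and at 26.1% of JunB-only sites, where 18.1% of all sites had it. For ATF2 the shares were 10.5% and 27.6% (all sites 33.3%), and for ATF7 7.56% and 18.0% (all sites 21.2%). The nuclear receptors went the other way. VDR was listed at 47.4% of cJun-only sites and 34.3% of JunB-only sites (all sites 34%), and RXR at 47.4% and 39.1% (all sites 34.8%). The KLF factors lay closer together: KLF5 was listed at 45.9% and 46.6% (all sites 49.3%) and KLF4 at 22.6% and 19.7% (all sites 16.9%). All sites include those listed for neither Jun protein, which are in the set only because another factor was listed there. The shares given for all sites are thus raised by construction and are not a neutral baseline.

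Differences of these shares were taken with intervals at the 95% level adjusted over 21 differences (7 factors and 3 pairs of classes, which share their sites and so are not independent). Sites of cJun only minus sites of JunB only gave -18.9 points for FOSL2 (-21.6 to -15.8), -17.1 for ATF2 (-20.2 to -13.6) and -10.4 for ATF7 (-13.1 to -7.39). FOSL2 and ATF2 were lower on 20 of 20 chromosomes and ATF7 on 19, with SDs of 4.61, 4.94 and 5.56 points. The difference was 13.1 points for VDR (8.33 to 17.8), higher on 20 of 20 chromosomes, and 8.27 for RXR (3.50 to 13.1), higher on 17, with SDs of 6.26 and 7.81 points. For KLF4 it was 2.88 (-0.948 to 7.04) and for KLF5 -0.710 (-5.48 to 4.11), and neither was called, since both intervals include 0.

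**Figure D1:**
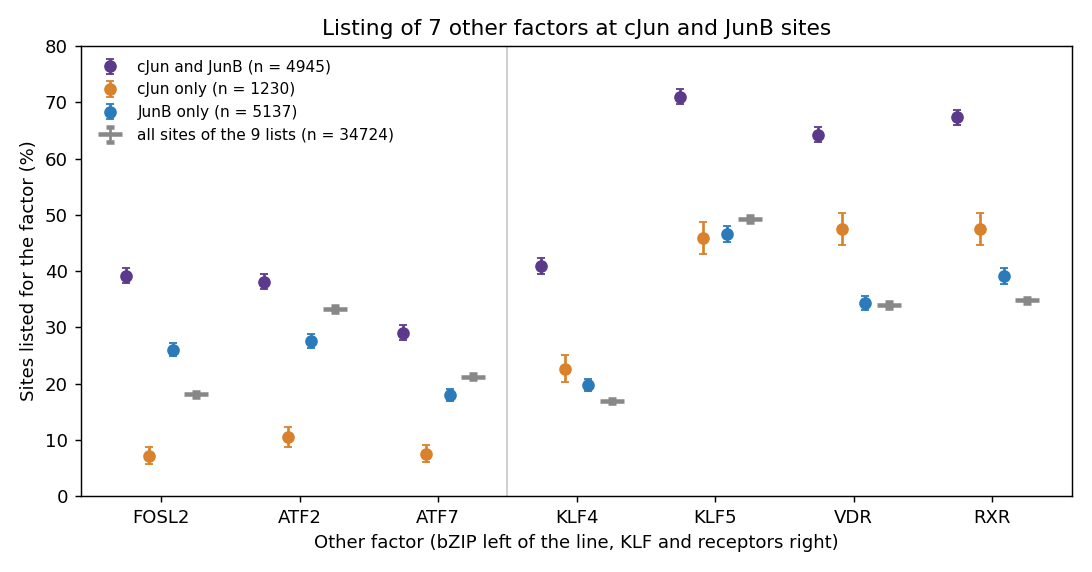
Share of sites listed for each of the other 7 factors (y axis, percent) at sites of cJun and JunB, of cJun only and of JunB only, with all sites of the 9 lists in grey; bars are exact 95% intervals. Sites of cJun only sit below all other groups for FOSL2, ATF2 and ATF7 (7.15% to 10.5%), and shared sites sit above all other groups for all 7 factors.

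Shared sites were listed for every other factor more often than either single-Jun class. FOSL2 reached 39.2%, ATF2 38.1% and ATF7 29.1% of shared sites, and KLF4 40.9%, KLF5 71.0%, VDR 64.2% and RXR 67.3%. Against JunB-only sites the differences ran from 10.6 points for ATF2 (7.72 to 13.4) to 29.9 for VDR (27.003 to 32.8). Against cJun-only sites they ran from 16.8 for VDR (12.0 to 21.6) to 32.0 for FOSL2 (28.7 to 34.9). The factors with the largest gap thus differed: receptors in the first case and FOSL2 in the second. Of the 21 differences, 16 were called higher, 3 lower and 2 neither. With the number of the other 6 factors held equal, as described next, these counts were 12, 4 and 5. At equal place in the rows, described further on, they were again 12, 4 and 5, and with both held equal 10, 6 and 5.

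A shared site also held more factors in general. The mean number of the other 7 factors was 3.50 ± 2.06 (SD over 4945 sites) at shared sites, 1.88 ± 1.68 (SD over 1230 sites) at cJun-only sites and 2.11 ± 1.95 (SD over 5137 sites) at JunB-only sites. At least 4 of the 7 were listed at 51.6% of shared sites (95% exact interval 50.2 to 53.0), 22.3% of cJun-only sites (20.0 to 24.7) and 24.3% of JunB-only sites (23.1 to 25.5), against 17.6% of all sites. None of the 7 was listed at 8.80%, 29.8% and 27.2%. Every site of the neither class had at least 1 of the 7 by construction, which puts the share without any at 6.34% over all sites. The single-Jun classes lay close in these counts and farther apart where many factors met. At least 5 of the 7 were listed at 4.39% of cJun-only sites (3.32 to 5.69) and at 13.5% of JunB-only sites (12.6 to 14.5). The share was 30.2% at shared sites and 3.27% at sites of the neither class. A site with 5 of the 7 must hold at least 1 of FOSL2, ATF2 and ATF7, since only 4 are KLF factors or receptors.

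Sites with equal numbers of the other 6 factors were therefore compared (a Mantel-Haenszel difference of shares, intervals adjusted over 21 as before). The contrast between the single-Jun classes remained: cJun only minus JunB only was -17.2 points for FOSL2 (-20.1 to -14.3), -14.6 for ATF2 (-17.7 to -11.5) and -7.55 for ATF7 (-10.2 to -4.92). It was 17.3 for VDR (13.1 to 21.5), 12.1 for RXR (7.88 to 16.2) and 4.61 for KLF4 (1.10 to 8.12). The number held equal includes the factors contrasted, so this is not an independent check. At an equal number, a class with fewer bZIP factors holds more KLF factors and receptors. With FOSL2 left out of the number, the difference was 15.15 for VDR and 9.66 for RXR, both still called. The value for KLF4 was no longer called when FOSL2 or ATF2 was left out of the number of factors. KLF5, with 1.50 points (-2.56 to 5.55), was again not called, but it was with VDR left out of the number of factors (4.47, 0.227 to 8.72).

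The excess at shared sites shrank in that comparison. Shared minus JunB-only sites gave 15.0 points for VDR (12.2 to 17.9), 11.9 for RXR (9.14 to 14.7), 6.71 for KLF5 (4.03 to 9.40), 6.19 for KLF4 (3.62 to 8.77) and 4.77 for FOSL2 (1.92 to 7.62). With place in the rows also held equal, the value for KLF4 was 1.89 (-0.532 to 4.31) and no longer called. ATF2 was lower at shared sites, by -3.33 points (-6.02 to -0.639), though not once FOSL2 or ATF7 was left out of the number of factors, and ATF7 was not called (-0.948, -3.36 to 1.47). Shared minus cJun-only sites gave 21.9 points for FOSL2 (18.7 to 25.1), 12.5 for ATF2 (9.14 to 15.9), 7.38 for ATF7 (4.45 to 10.3) and 5.43 for KLF5 (1.11 to 9.74). The call for KLF5 was lost as a mean over chromosomes, among sites with at least 1 other factor (2.57, -2.32 to 7.46) and with place also held equal (0.922, -3.31 to 5.15). VDR (-2.08, -6.51 to 2.35), RXR (-0.369, -4.73 to 3.99) and KLF4 (-0.198, -3.96 to 3.57) were not called there. With place also held equal, VDR (-6.98, -11.2 to -2.77) and RXR (-5.255, -9.42 to -1.09) were both called lower at shared sites, and VDR was also called lower among sites with at least 1 other factor (-5.71, -10.7 to -0.747). With the number of factors held equal, the largest value against JunB-only sites was thus that of VDR, and against cJun-only sites that of FOSL2.

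The same counts can be read from the side of each list. Among cJun sites, those with none of FOSL2, ATF2 and ATF7 were listed for JunB in 69.2% of 3395 cases (95% exact interval 67.7 to 70.8). With 1 of these bZIP factors the share was 90.4% (88.3 to 92.2), with 2 it was 92.6% (90.6 to 94.2) and with all 3 it was 96.9% (95.6 to 97.9). FOSL2 as the sole factor of the 3 went with JunB at 93.1% of 466 cJun sites (90.4 to 95.3), ATF7 at 88.8% of 160 (82.8 to 93.2) and ATF2 at 87.2% of 328 (83.1 to 90.6). The intervals of FOSL2 and ATF2 overlap narrowly, and that of ATF7 overlaps both. The share also climbed with the number of KLF4, KLF5, VDR and RXR, from 64.5% with none of the 4 through 76.3%, 80.5% and 85.2% to 88.3% with all 4.

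Among JunB sites, listing for cJun climbed with the number of each kind of factor when the other kind was not held equal. By the number of FOSL2, ATF2 and ATF7, from none to all 3, it was 43.8%, 46.6%, 53.4% and 68.2%. The same 4 shares were 23.7%, 28.9%, 38.5% and 52.1% at sites with none of KLF4, KLF5, VDR and RXR. At sites with 3 of these they were 57.4%, 56.3%, 57.7% and 66.8%. By the number of KLF factors and receptors alone, cJun was listed at 27.6% of 2809 JunB sites with none of the 4 (26.0 to 29.3). The share was 41.3% with 1 of the 4, 50.1% with 2, 58.6% with 3 and 72.8% with all 4 (70.9 to 74.6). VDR as the sole factor of the 4 went with cJun at 51.3% of 378 JunB sites (46.2 to 56.5), RXR at 41.9% of 454 (37.3 to 46.5), KLF5 at 37.7% of 840 (34.4 to 41.1) and KLF4 at 23.3% of 60 (13.4 to 36.0). The interval of VDR lay above those of KLF5 and KLF4.

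**Figure D2:**
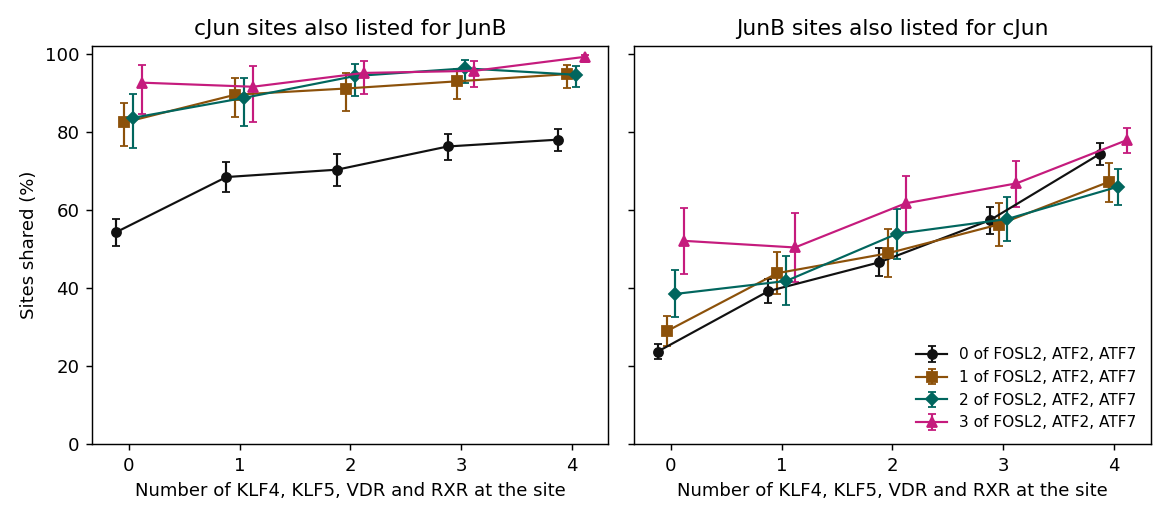
Share of cJun sites also listed for JunB (left) and of JunB sites also listed for cJun (right), in percent, by the number of KLF4, KLF5, VDR and RXR at the site (x axis) and of FOSL2, ATF2 and ATF7 (colours); bars are exact 95% intervals. On the left the lines with at least 1 bZIP factor lie above the line with none at each x value; on the right the line with no bZIP factor climbs from 23.7% to 74.4%, and the line for all 3 bZIP factors is highest at each x value.

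Crossing the 2 counts gave the range of sharing. JunB was listed at 54.2% of 802 cJun sites with none of the 7 (50.7 to 57.7) and at 99.2% of 508 with all 7 (98.0 to 99.8). cJun was listed at 23.7% of 1833 JunB sites with none of the 7 (21.8 to 25.7) and at 77.9% of 647 with all 7 (74.5 to 81.0). JunB sites with all 4 KLF factors and receptors but no FOSL2, ATF2 or ATF7 were listed for cJun in 74.4% of 915 cases (71.5 to 77.2). With 1 or 2 of those bZIP factors besides, the share was lower, 67.2% (62.1 to 72.1) and 66.0% (61.2 to 70.5). The interval for 1 overlaps narrowly with that for none, and no difference was taken. Where none of the 4 KLF factors and receptors was listed, as given above, the share was higher with 1 or 2.

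FOSL2 offers a comparison with another possible partner of JunB, since its list was about as long as that of cJun (6284 sites). Listing at the same site does not show pairing, and JunB was listed at 29% of all sites. Sites listed for cJun without FOSL2 had JunB in 72.5% of 4149 cases (71.1 to 73.8), and sites listed for FOSL2 without cJun in 31.4% of 4258 (30.1 to 32.9). The difference of 41.0 points (95% interval 39.1 to 42.9) was positive on 20 of 20 chromosomes, from 26.2 to 56.2 points. At equal numbers of the other 6 factors it was 36.9 points (34.9 to 38.9). Where none of the other 6 was listed, JunB was present at 54.2% of cJun sites and 16.4% of FOSL2 sites (14.6 to 18.3); where all 6 were, at 89.7% (82.6 to 94.5) and 60.3% (53.8 to 66.6). Sites listed for cJun and FOSL2 together had JunB in 95.7% of 2026 cases (94.7 to 96.5).

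The combinations of factors show the contrast site by site. Without any other factor stood 367 cJun-only sites (29.8%) and 1398 JunB-only sites (27.2%), in each class the most frequent case. Next among cJun-only sites came all 4 of KLF4, KLF5, VDR and RXR with no bZIP factor, at 192 sites (15.6%), and KLF5, VDR and RXR, at 133 (10.8%). Among JunB-only sites these combinations made up 4.56% (234 sites) and 5.37% (276 sites). KLF5 alone, at 285 sites (5.55%), was the second most frequent there and KLF5, VDR and RXR the third. At sites listed for neither Jun protein, KLF5 alone made up 17.5%, more than in any of the 3 classes. Such sites cannot lack all 7 factors, which raises this share by construction. All 4 of KLF4, KLF5, VDR and RXR made up 2.40% of those sites, and KLF5, VDR and RXR 4.71%. At shared sites the most frequent combination was KLF4, KLF5, VDR and RXR, at 681 sites (13.8%), followed by all 7 factors at 504 (10.2%) and none at 435 (8.80%). All 7 factors met at 143 JunB-only sites (2.78%), near the 2.15% of all sites, and at 4 cJun-only sites, or 0.325% (95% exact interval 0.0887 to 0.831).

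Grouped by kind, 15.1% of cJun-only sites (13.2 to 17.2) held any of FOSL2, ATF2 and ATF7, against 41.2% of JunB-only sites (39.8 to 42.6), 52.5% of shared sites (51.1 to 53.9) and 47.7% of all sites. Any KLF factor or receptor was held by 65.2% of cJun-only sites (62.5 to 67.9), 60.4% of JunB-only sites (59.1 to 61.8), 84.3% of shared sites (83.3 to 85.3) and 68.3% of all sites. VDR and RXR stood together at 37.1% of cJun-only sites (34.4 to 39.8), 26.6% of JunB-only sites (25.4 to 27.9) and 55.7% of shared sites (54.3 to 57.04), against 22.8% of all sites. A receptor or KLF factor without any of the 3 bZIP factors was found at 55.0% of cJun-only and 31.6% of JunB-only sites, against 46% of all sites. The bZIP factors without a receptor or KLF factor were found at 4.96% and 12.4%, against 25.4%. Of the 8809 sites behind that last share, 7772 were listed for neither Jun protein. Sites of the neither class are in the set only because another factor was listed there. Sites with a Jun protein need no other factor. The shares of all sites in this paragraph are thus raised by construction and are not a neutral baseline.

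Rows in the deposited lists are not sorted by position, and the order of the 4945 shared sites was identical in the cJun and the JunB list. The sites named further on also kept the same order in the FOSL2, KLF4 and VDR lists where they were listed. At these sites the order is thus not particular to the Jun lists, and place is not shown to rank cJun or JunB binding. The sources used here do not say what the order stands for. Rows were cut into 10 bins of equal size, and the order went with the number of factors. Sites in the first bin of the cJun rows held 5.36 of the other 7 factors on average and those in the last bin 0.632, and in the JunB rows the means were 5.13 and 0.578. Sharing fell along the rows as well. JunB was listed at 93.7% of cJun sites in bin 1 (91.5 to 95.5), at 88.8% in bin 5 (86.1 to 91.2) and at 40.7% in bin 10 (36.8 to 44.7). cJun was listed at 73.3% of JunB sites in bin 1 (70.5 to 76.0), 53.6% in bin 5 (50.4 to 56.7) and 16.6% in bin 10 (14.3 to 19.01). The cJun list stayed at or above 87.2% through bin 5 and dropped most steeply at its end, whereas the share in the JunB list fell over most of its length. The median cJun-only site stood at 75.8% of the way down the cJun rows, the median JunB-only site at 63.3% of the JunB rows.

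**Figure D3:**
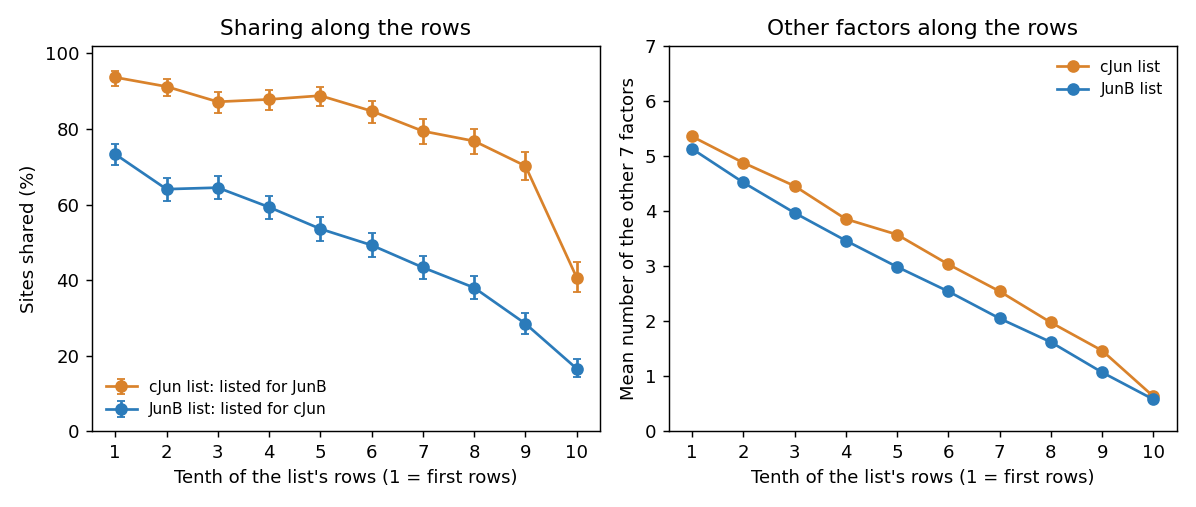
Left, share of sites also listed for the other Jun protein (percent, with exact 95% intervals) by 10 equal bins of the rows of the cJun list and the JunB list; right, mean number of the other 7 factors in the same bins. Sharing falls from 93.7% to 40.7% in the cJun list and from 73.3% to 16.6% in the JunB list, alongside the number of other factors.

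Because rows and factors moved together, the classes were also compared at equal place, counted as the number of shared sites that stand above a site in its own list, again in 10 bins. This comparison was added after the data were examined. The order went with the number of the factors contrasted, so equal place is not an independent check. The last bin has no lower end and held 496 cJun-only, 1636 JunB-only and 494 shared sites. Place is held equal less closely there. FOSL2 was listed at 3.13% of 32 cJun-only sites in bin 1, 9.09% of 66 in bin 5 and 5.85% of 496 in bin 10. At JunB-only sites the share went from 48.4% of 157 through 29.2% of 353 to 15.5% of 1636. FOSL2 listing at cJun-only sites was thus low at each place, from 3.03% to 13.3% over the 10 bins. VDR was listed at 90.6%, 84.8% and 17.1% of cJun-only sites in those 3 bins and at 80.3%, 58.9% and 8.86% of JunB-only sites. Over all bins cJun only minus JunB only was -17.8 points for FOSL2 (-20.7 to -14.9) and 16.4 for VDR (12.3 to 20.4).

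**Figure D4:**
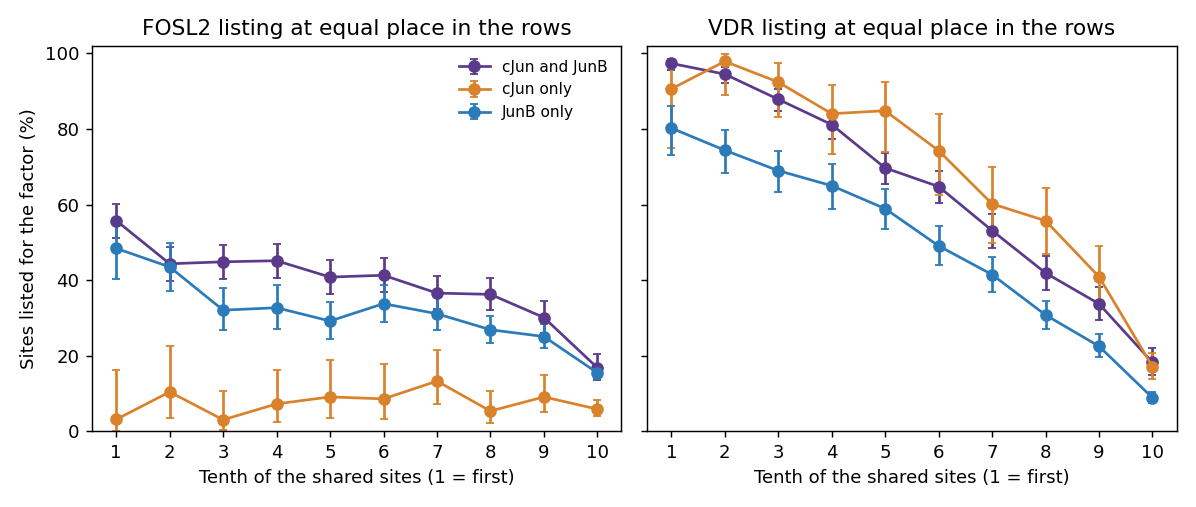
Share of sites listed for FOSL2 (left) and VDR (right), in percent with exact 95% intervals, by place in the row order, in 10 bins of the shared sites, for the 3 classes. The FOSL2 share of cJun-only sites lies between 3.03% and 13.3% in all bins and is the lowest of the 3 classes in each, while the VDR share of JunB-only sites is the lowest of the 3 in each.

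Other differences of the shared sites shrank or turned at equal place. Shared minus cJun-only sites was then -5.14 points for VDR (-9.40 to -0.885) and -2.31 for RXR (-6.56 to 1.94), against positive differences without this account, while FOSL2 kept 25.4 points (22.0 to 28.9). Shared minus JunB-only sites was 2.18 points for ATF2 (-0.740 to 5.11), which was no longer called, and 13.3 for VDR (10.5 to 16.1).

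The distance to the next site varied less between the classes. The nearest site of any of the 9 lists lay at a median of 5511 bp from a shared site, 6762.5 bp from a cJun-only site and 6589 bp from a JunB-only site. A neighbour within 10 kb was found for 62.4%, 58.2% and 58.7% of these sites, where 60.6% of all sites had one. Shared minus JunB-only sites was 3.71 points (95% interval 1.81 to 5.62, positive on 14 of 20 chromosomes) and shared minus cJun-only sites 4.195 points (1.15 to 7.28, on 16 chromosomes). Neither was called among sites with at least 1 other factor, where the differences were 1.14 points (-0.946 to 3.23) and 0.955 (-2.50 to 4.51). Within 1 kb the shares were 18.0%, 15.6% and 16.7% (all sites 19%), and only shared minus cJun-only sites was called, at 2.39 points (0.0108 to 4.60). Even this was not called under 3 of the alternatives tried, given in the closing section.

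Sites of the other Jun list near single-Jun sites were counted beside those near sites of neither list. A JunB-listed site had its midpoint within 400 bp of 18 cJun-only sites (1.46%, 0.870 to 2.30), and a cJun-listed site within 400 bp of 34 JunB-only sites (0.662%, 0.459 to 0.924). Within 1 kb the shares were 5.77% and 3.39%, and within 10 kb 30.9% and 19.1%. Sites of the neither class had a JunB-listed site within 400 bp in 1.17% of cases, within 1 kb in 5.12% and within 10 kb in 26.3%. A cJun-listed site lay as near in 0.726%, 3.11% and 17.5%. The median distance from a cJun-only site to the nearest JunB-listed site was 23849.5 bp. Where another Jun site lay within 10 kb, the nearest was itself cJun only for 10.5% of 408 cJun-only sites (7.73 to 13.9), 12.0% of 1797 shared sites (10.5 to 13.6) and 10.1% of 1579 JunB-only sites (8.63 to 11.7). These 3 intervals overlap.

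Chromosomes differed modestly. The shared class made up 43.7% of the sites with either Jun protein (42.8 to 44.6), with a mean over 20 chromosomes of 42.9% ± 4.05 (SD). Chromosome 19 had the highest share, 49.3% of 525 sites (45.0 to 53.7), and chromosome X the lowest, 32.4% of 207 (26.0 to 39.2). JunB only was most frequent on chromosome 7 (53.2%, 48.4 to 58.0) and least on chromosome 10 (40.2%, 36.5 to 43.9). cJun only was highest on chromosome X (15.0%, 10.4 to 20.6) and lowest on chromosome 7 (7.60%, 5.29 to 10.5). Of the 31 cJun-only sites of chromosome X, 5 lay in a single stretch, described under the other observations. JunB was listed at 68.4% of the cJun sites of chromosome X and at 83.7% of those of chromosome 7. Chromosome 10 held 6.75% of all shared sites but 60 of the 495 in the first of the 10 bins by place. It held 2 of 32 cJun-only and 9 of 157 JunB-only sites in that bin, against 7.24% and 5.53% of these classes as a whole.

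**Figure D5:**
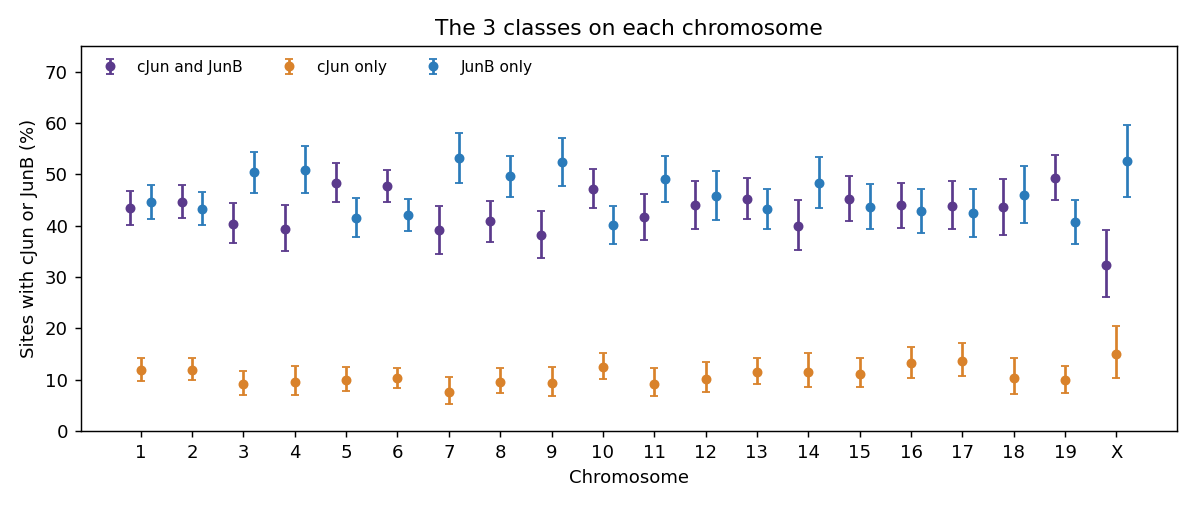
Share of the 3 classes among sites with cJun or JunB (percent, exact 95% intervals) on each chromosome. cJun only lies between 7.60% and 15.0% throughout, and the shared class is lowest on chromosome X (32.4%).

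Single sites can be named by position (mm9, 1-based, each 400 bp long); what the annotation places there was not analysed here. The first shared sites in genome order with all 7 other factors lay on chromosome 1 at 16218432 to 16218831, 20059804 to 20060203 and 40228933 to 40229332. The first such JunB-only sites lay on chromosome 1 at 39811404 to 39811803, 58361222 to 58361621 and 90371287 to 90371686. Of the 4 such cJun-only sites, the first 3 lay at 83620454 to 83620853 on chromosome 4, 116646668 to 116647067 on chromosome 10 and 101973591 to 101973990 on chromosome 15. Their nearest neighbouring sites lay at 1423, 1404 and 2238 bp.

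The most isolated sites held few factors. Of the shared sites, that on chromosome 9 at 11328883 to 11329282 was farthest from any neighbour, at 1916633 bp, and had ATF2 as its only other factor; the next, on chromosome 12 at 51069053 to 51069452, had none. Among cJun-only sites these were chromosome 1 at 26744434 to 26744833, with no other factor, and chromosome 11 at 91830855 to 91831254, with RXR. The most isolated JunB-only sites, on chromosome X at 87693477 to 87693876 and on chromosome 4 at 111525252 to 111525651, had no other factor.

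The longest unbroken run of JunB-only sites, with gaps of at most 10 kb, held 9 sites on chromosome 19 between 44468919 and 44482205. Each of the 9 was listed for FOSL2 and for no other factor. They stood at rows 1, 2, 4, 5, 6, 14, 19, 394 and 2704 of the JunB list, so 7 were among its first 20 rows, in which every other site held 4 to 7 of the other factors. Some of the 9 intervals overlap, the smallest distance between midpoints being 308 bp, so they are not independent sites. Whether the 9 intervals fall on exons of a single gene, as DNA from a plasmid or cDNA in these libraries would, was not tested, so they may not be binding sites. In the FOSL2 list they stood at rows 2, 3, 8, 10, 11, 16, 20, 287 and 1766. Leaving the run out changed the FOSL2 difference between cJun-only and JunB-only sites to -18.8 points. The longest run of shared sites held 5 sites on chromosome 2 between 148254210 and 148271717, each with RXR and none with FOSL2, ATF2 or ATF7. The longest run of cJun-only sites held 3 sites on chromosome X between 72911384 and 72914205, each with KLF4 and VDR and without RXR and KLF5.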

How the data were processed

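The files analysed here hold ChIP-seq peaks of 9 transcription factors, 1 library each, out of 30 labelled samples, of which 21 were not analysed here. The authors deposited 3 columns per list (chromosome, start and end), with no score or count, so depth per library is unknown. FastQC, Bowtie, HOMER and mm9 are named, per the submitters' processing notes; the sources used here do not give their versions and roles or the peak threshold. All intervals were 400 bp long, and midpoints of different sites lay at least 201 bp apart. The 2 intervals on chromosome Y, 1 of them in the cJun list, were left out.

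Sites were matched by identical interval. Shares carry exact Clopper-Pearson 95% intervals, differences Newcombe intervals, and differences at equal factor number Mantel-Haenszel estimates with Sato's variance. For the 7 other factors these were set at 95% adjusted by Bonferroni over 21 differences, and a difference was called where the interval excluded 0; all others are unadjusted. No p-values are given, because intervals compare these lists and not conditions. Calculations were tested on simulated sites drawn independently, with intervals at the unadjusted 95% level. Clustering of sites and the adjusted intervals were not covered by that test. Python 3.11.15, numpy 2.4.6, scipy 1.17.1, pandas 2.3.3 and matplotlib 3.10.9 were used.

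Named sites follow a rule: in each class the first 3 with the most other factors, the 2 farthest from a neighbour, the longest run with gaps up to 10 kb, the 3 most frequent combinations, and the extreme chromosomes. The classes, factor groups and rules were chosen with earlier results of these data known. No mm9 genome or annotation was used here, so motifs, sequences and genes are not reported.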

Additional observations from a re-analysis of the deposited data

How the results depend on the processing

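Of 418 comparisons of 59 results with an alternative, 358 did not change: differences kept direction and call, shares stayed within their interval, and numbers of calls stayed within 1.5 times (for example 16 differences called higher without strata and 12 at equal place). Of the rest, 27 differences changed sign. With the sign kept, 16 lost their call and 7 gained a call, and 10 shares left their interval. In all alternatives tried for them, cJun-only sites stayed lower than JunB-only sites in FOSL2, ATF2 and ATF7 and higher in VDR and RXR. The cause of the changes below was not tested. JunB was listed at 81.2% of cJun sites and cJun at 50.8% of JunB sites with matches within 1000 bp, at 83.9% and 54.7% among sites with at least 1 other factor, and at 89.8% and 63.0% in the upper 50% of the rows (chosen after the data were examined). Sites with 4 or more factors were 56.6% (shared), 31.75% (cJun only) and 33.4% (JunB only) among sites with at least 1 other factor, which lack the sites with none by construction, and 49.8% (shared) as a mean over chromosomes. At equal place in the rows, also chosen after the data were examined, shared minus JunB-only sites fell to 2.18 points for ATF2, not called. Shared minus cJun-only sites was then -0.810 for KLF4, 3.99 for KLF5 and -2.31 for RXR, none called, and -5.14 for VDR, called. cJun only minus JunB only was 4.87 for KLF4, called, and 2.61 for KLF5, not called. With place and factor number both held equal, shared minus JunB-only sites was 1.89 for KLF4 and not called, and shared minus cJun-only sites 0.922 for KLF5, not called, and -6.98 for VDR and -5.255 for RXR, both called. Among sites with at least 1 other factor, KLF5 was 1.38 points (cJun only minus JunB only) and VDR 2.89 (shared minus cJun only), neither called; at equal factor number, shared minus cJun only was 2.57 for KLF5, not called, and -5.71 for VDR, called. As means over chromosomes the last contrast was 5.305 for KLF5, no longer called, and 0.342 for RXR; without chromosome 10 it was 0.585 for KLF4.

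The number of factors was also counted without each list in turn. For shared minus JunB-only sites this gave -0.373 (without FOSL2) and -1.31 (without ATF7) for ATF2, and 0.876 (without FOSL2) and 0.828 (without ATF2) for ATF7. For cJun only minus JunB only it gave 2.86 (without FOSL2) and 3.18 (without ATF2) for KLF4, and -1.73 (without FOSL2), -1.32 (without ATF2) and 4.47 (without VDR, then called) for KLF5. For shared minus cJun only it gave 1.44, 0.162, 2.33, 0.646 and 0.885 for KLF4 (without FOSL2, ATF2, KLF5, VDR and RXR), 0.132, 0.847 and 1.55 for VDR (without KLF4, KLF5 and RXR), and 0.696, 1.64, 3.33 and 2.88 for RXR (without FOSL2, KLF4, KLF5 and VDR).

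For neighbours within 1 kb, shared minus JunB-only sites was -0.151 points among sites with at least 1 other factor and 1.87, then called, without single-Jun sites within 400 bp of the other list. Shared minus cJun only was 0.756 with neighbours from the Jun lists, 0.914 among sites with at least 1 other factor and 2.52 over chromosomes, none called; cJun only minus JunB only was 0.0801 with neighbours from the Jun lists and -2.65, then called, without chromosome 10. For neighbours within 10 kb, cJun only minus JunB only was 2.43 with neighbours from the Jun lists and 0.185 among sites with at least 1 other factor, where shared minus JunB only (1.14) and shared minus cJun only (0.955) were no longer called. A stricter peak threshold could not be tried without scores. No paired analysis was possible because each factor had 1 library. Depth is unknown, so how many sites each list missed cannot be given.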

Other observations

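The run of cJun-only sites on chromosome X was looked at more widely after its values were seen. Within 20 kb of it on either side lay 6 sites in all, of which 5 were listed for cJun only and none for JunB. Of these 5, 4 had exactly KLF4 and VDR among the other 7 factors, and the fifth, at 72913806 to 72914205 (mm9), had ATF7 besides. Over all chromosomes 8 cJun-only sites had exactly KLF4 and VDR, so this stretch held 4 of the 8. Across all classes, 73 of the 34724 sites had exactly this pair among the other 7 factors. The sites stood at rows 2073, 2462, 2550, 2734 and 5514 of the cJun list.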
